A study of Rattus norvegicus with 4 samples.

Results

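The genes described are the adipokines Adipoq (adiponectin), Lep (leptin), Retn (resistin), Cfd (complement factor D, also called adipsin), Nampt (visfatin), Apln (apelin) and Rarres2 (chemerin), with the chemerin receptor Cmklr1, the chemerin-binding receptor Ccrl2 and the apelin receptor Aplnr. They were taken by symbol from the feature table, which holds 1 row for each, so that 10 of 32883 features are described. Nuclei came from snap-frozen fat of male Dahl salt-sensitive rats (strain SS/HsdMcwiCrl) aged 16 weeks, naïve and on the same standard chow. The groups were 2 libraries of perivascular fat around the thoracic aorta (taPVAT) and 2 libraries of subscapular brown fat (BAT), with no treatment in either. The labels do not say whether a rat gave both tissues, nor whether the replicates came from separate rats, so p-values measure only the spread between these libraries, which may be technical.

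Adipokines are proteins that fat cells release into the blood or act on their neighbours with. Adiponectin acts on insulin sensitivity, leptin reports fat stores to the brain, and factor D cuts factor B to start the alternative complement pathway. Chemerin is released as an inactive precursor, is cut by proteases, and then draws in macrophages, dendritic cells and natural killer cells through Cmklr1. In arteries chemerin is also known for raising vessel tone. Ccrl2 binds chemerin without signalling and is known to present it to nearby cells. Apelin acts through Aplnr, a receptor best known from endothelial cells.

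The bases before the transcription start are shown for Lep, Adipoq, Retn and Cmklr1, chosen after their values were seen: these 4 members were over 2 times as high in every library in 1 kind of adipocyte nuclei described further on, where Cfd and Rarres2 were higher by less. The promoter table (RefSeq, build GRCr8) matched 8 of the 10 members, and Nampt and Aplnr were not matched. These coordinates are of GRCr8, whereas the counts were made on Rnor_6.0. Each run is the 250 bases upstream of the start, read 5′ to 3′ on the strand of the gene, for Lep at chr4:58626288-58626537 (plus strand), Adipoq at chr11:91240170-91240419 (minus), Retn at chr12:6508524-6508773 (plus) and Cmklr1 at chr12:48680262-48680511 (plus). Capitals mark matches, on either strand, to the C/EBP palindrome TTGCGCAA or the CCAAT box CCAAT, and the TATA box TATAAA (in 12.9% of windows) was searched as well.
Lep: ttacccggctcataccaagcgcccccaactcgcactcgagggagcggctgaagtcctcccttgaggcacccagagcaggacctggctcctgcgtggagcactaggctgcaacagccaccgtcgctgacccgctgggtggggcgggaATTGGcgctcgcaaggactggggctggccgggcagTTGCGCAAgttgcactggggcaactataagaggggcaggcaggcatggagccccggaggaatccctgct
Adipoq: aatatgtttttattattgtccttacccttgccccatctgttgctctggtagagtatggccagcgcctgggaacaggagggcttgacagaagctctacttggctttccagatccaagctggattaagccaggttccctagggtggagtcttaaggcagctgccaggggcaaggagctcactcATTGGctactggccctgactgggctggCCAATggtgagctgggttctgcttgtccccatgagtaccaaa
Retn: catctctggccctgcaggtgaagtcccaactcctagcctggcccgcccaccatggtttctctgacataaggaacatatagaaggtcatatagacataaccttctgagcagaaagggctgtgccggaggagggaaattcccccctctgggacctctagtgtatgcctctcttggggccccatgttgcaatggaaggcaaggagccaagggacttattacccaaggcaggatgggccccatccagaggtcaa
Cmklr1: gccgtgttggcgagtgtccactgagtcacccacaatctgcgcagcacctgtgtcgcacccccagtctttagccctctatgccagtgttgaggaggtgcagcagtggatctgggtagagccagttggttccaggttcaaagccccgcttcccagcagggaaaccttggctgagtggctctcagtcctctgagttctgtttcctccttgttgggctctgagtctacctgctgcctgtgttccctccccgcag
Lep carried TTGCGCAA with its first base at -69, a word found in 47 of 33469 RefSeq promoter windows of this length (0.14%), and a CCAAT box on the opposite strand at -104. Adipoq carried CCAAT boxes at -69 (opposite strand) and -42 (same strand), a word that 34.0% of the windows hold. The Retn and Cmklr1 windows held none of these words, nor did the windows of Rarres2, Cfd, Ccrl2 and Apln. The words do not overlap one another in these windows. They are letters only and show no binding.

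The 4 libraries held 14765 to 44637 barcodes and 63654436 to 158140959 unique molecular identifiers (UMIs), and any pair shared 126 to 424 barcodes, 0.426% to 1.29% of a library. After filters 100707 nuclei remained, of which 75112 were adipocyte-like. The other classes were vascular endothelial-like (5783 nuclei), fibroblast-like (3092), mural-like (2106), mesothelial-like (298), myeloid-like (1867), Schwann cell-like (432), lymphatic endothelial-like (247), B lymphocyte-like (236) and T or NK lymphocyte-like (764), named from marker genes and written below without the suffix. Clusters that met the naming rule of no single class (10770 nuclei) were left out of every class. They include 2 clusters, of 1911 and 1595 nuclei, that passed the adipocyte rule on marker levels and were set aside because their 10 leading genes held markers of another class. Mesothelial nuclei were found in taPVAT alone, and 11 and 9 lymphatic endothelial nuclei in BAT were too few to use. Libraries stood apart by replicate number more than by tissue: in adipocyte nuclei, the values of replicates 1 and replicates 2 did not overlap for 62.8% of 15516 genes, against 19.9% for taPVAT and BAT. Most adipocyte clusters came nearly whole from 1 or 2 libraries.

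Adipocyte nuclei of both tissues carried UMIs of all 7 adipokines, and none was called different between taPVAT and BAT. Levels are given as CPM, the UMIs of the gene scaled to all UMIs of the class in that library, summed over its nuclei. Adiponectin stood at 310.0 and 227 in the taPVAT libraries and at 375 and 267 in the BAT libraries. Resistin stood at 258 and 337 in taPVAT and at 320.2 and 440.0 in BAT. Factor D stood at 393 and 179 in taPVAT and at 509 and 308 in BAT. In each of these the ranges of the tissues overlapped, while replicates 1 and 2 were apart in the same direction in both tissues: Adipoq and Cfd were higher in replicates 1, and Retn was higher in replicates 2. Between libraries of the same number, each of these genes was higher in BAT, though the labels do not say that such libraries are pairs.

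Nampt, the enzyme that makes the NAD precursor nicotinamide mononucleotide and that is also released, was at 691 and 882 CPM in taPVAT adipocytes and at 633 and 945 in BAT adipocytes. Chemerin (Rarres2) was at 85.6 and 57.0 in taPVAT and at 82.0 and 66.6 in BAT. Apelin (Apln) was at 2.74 and 1.71 in taPVAT and at 2.65 and 2.56 in BAT. Nampt was higher in replicates 2, and Rarres2 and Apln were higher in replicates 1, in both tissues.

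Leptin showed the widest gap between libraries of a tissue. Lep was at 10.7 and 57.6 CPM in taPVAT replicates 1 and 2, and at 9.65 and 90.9 CPM in the BAT replicates of the same numbers. Both replicates 1 were low and both replicates 2 were high, whatever the tissue. The cluster of 1595 nuclei left outside the classes came only from replicates 2 and had Lep among its 10 leading genes. Its Lep level, 104 CPM, is not part of these values. A UMI of Lep was found in 1.17% to 8.35% of adipocyte nuclei thinned to 1000 UMIs each, and in 3.17% to 21.1% as found.

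**Figure D1:**
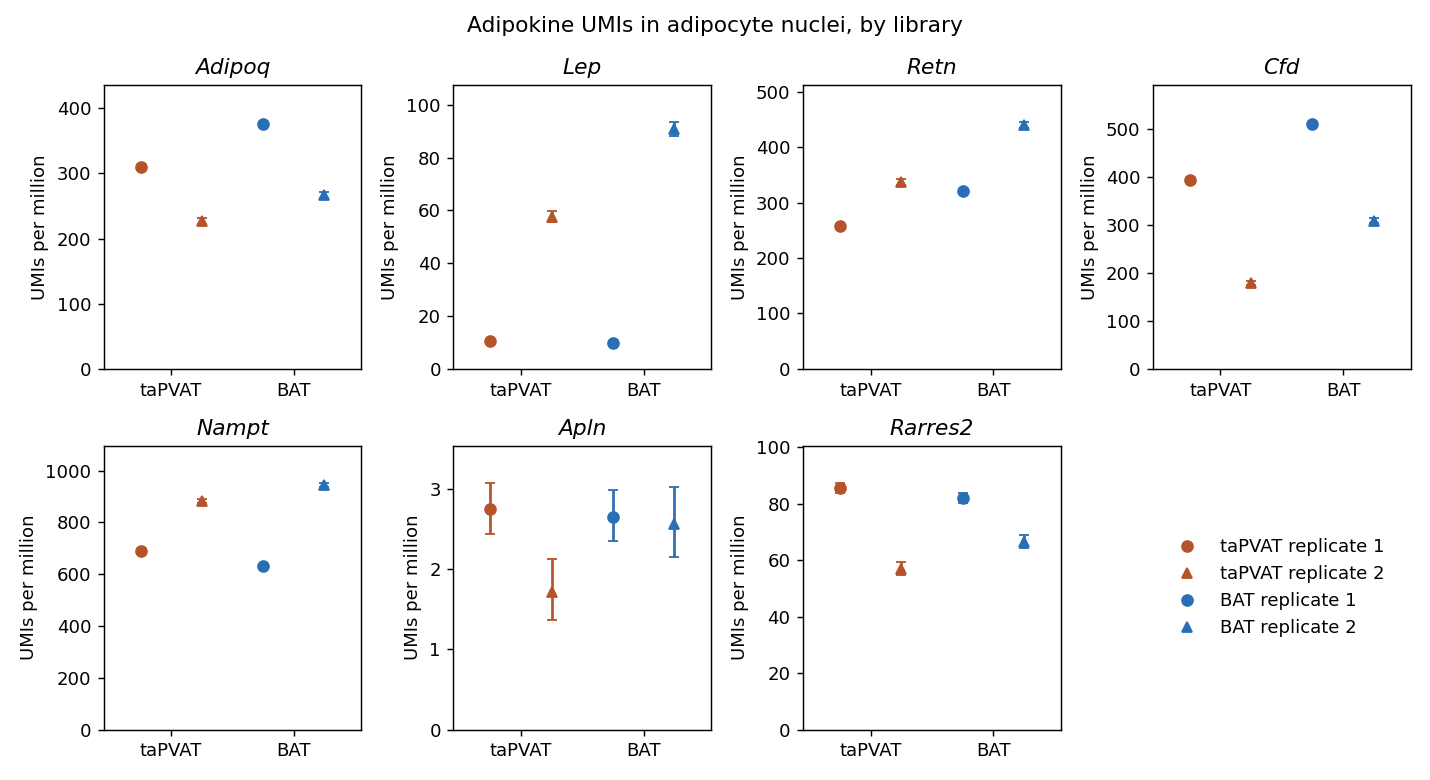
CPM of 7 adipokines in adipocyte nuclei, 1 point per library with its 95% Poisson interval (counting error only), each panel on its own axis from 0. Tissues overlap in every panel, and for Lep the replicates 2 (57.6 and 90.9) lie far above the replicates 1 (10.7 and 9.65).

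Tissue was tested with edgeR's quasi-likelihood test on the sums per library, with Benjamini-Hochberg adjustment over all genes tested. In adipocytes 0 of 10 members were called at an adjusted p under 0.05, beside 0.0% of 15516 genes (0 genes; an unadjusted p under 0.05 was found for 337, and 62 were called by DESeq2, none of them a member). The log2 fold changes, taPVAT over BAT, were -0.22 ± 0.30 (SE, n = 2 libraries a tissue) for Adipoq, -0.32 ± 0.33 for Retn, -0.48 ± 0.44 for Cfd and -0.53 ± 1.17 for Lep. They were 0.03 ± 0.35 for Nampt, -0.03 ± 0.29 for Rarres2 and -0.19 ± 0.38 for Apln. For the receptors they were -0.44 ± 0.63 for Cmklr1, 0.32 ± 0.48 for Ccrl2 and 0.10 ± 0.70 for Aplnr. None of these passed the test. The median over the 10 members was -0.21, beside 0.01 over all genes, with 3 members above 0 and 7 below. Over the sums of all kept nuclei, 0 of 10 members were called, beside 0.0% of 16625 genes (0 genes, 472 at an unadjusted p under 0.05, 108 by DESeq2). In such sums fewer cells of a type and less RNA per cell cannot be told apart.

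The Lep estimate depended on the libraries used. Without BAT replicate 2, Lep was 1.93 ± 0.51 higher on the log2 scale in taPVAT. That fit assumes that the lone BAT library varies like the taPVAT libraries. In it taPVAT replicate 1 (10.7 CPM) lay close to BAT replicate 1 (9.65), and taPVAT replicate 2 (57.6) lay above both. Without taPVAT replicate 2 the log2 fold change of Lep was -2.27 ± 0.99, and without taPVAT replicate 1 it was 0.19 ± 0.94. Ccrl2 was the only member whose tissues did not overlap in adipocytes (0.271 and 0.310 CPM in taPVAT, 0.214 and 0.262 in BAT), that is 1 of 10 members beside 19.9% of all genes. Its values rest on 29 and 15 UMIs in taPVAT and 22 and 14 in BAT, and their 95% Poisson intervals all overlap. The other 9 members did not overlap between replicates 1 and 2, beside 62.8% of all genes.

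Outside adipocytes, several adipokines were no lower than inside them as a share of all UMIs (CPM). Nuclei of the other classes were shallower, with medians of 1168 to 2273 UMIs against 2752.5 to 4950, and counts per nucleus were not compared. For each of 32 sums of a class in a library, the level was divided by that of adipocyte nuclei in the same library. The median of the 11 adipocyte markers in such sums was 15.1% to 51.8% of their adipocyte level. Factor D was at 134% to 366%, above the adipocyte level in 32 of 32 sums, and chemerin was at 137% to 473%, also in 32 of 32. Adiponectin was at 90.8% to 257% and above the adipocyte level in 24 sums, and resistin was at 78.4% to 273% and above it in 26. These transcripts did not follow the markers that defined the class. With nuclei assigned one by one from their own marker UMIs, the mean log2 ratio of Rarres2 to adipocytes was 0.50 in fibroblasts, 0.18 in vascular endothelial nuclei and 0.18 in myeloid nuclei, against 0.95, 0.89 and 1.08 by cluster. Class against class is given as a description, with no test, since the same nuclei were used to form the classes.

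**Figure D2:**
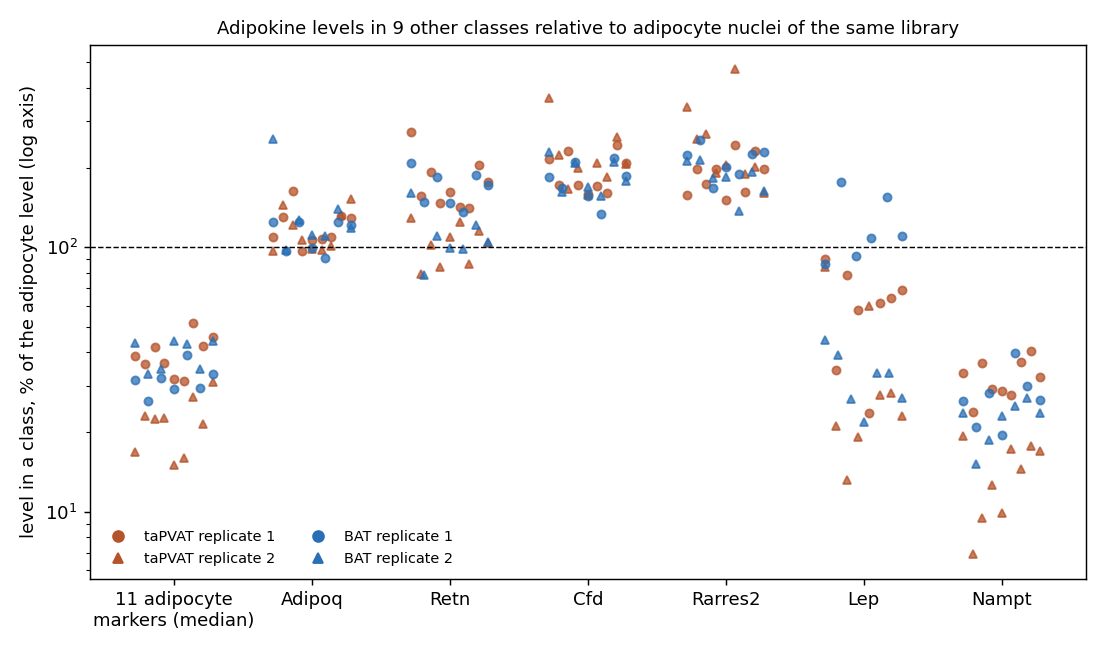
Level of each adipokine in 9 non-adipocyte classes as a percentage of its level in adipocyte nuclei of the same library (log axis, 1 point per class and library, values of 0 not drawn), beside the median of 11 adipocyte markers. Cfd and Rarres2 lie above the dashed 100% line in all 32 sums, while Nampt reaches 40.6% at most.

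Mitochondrial UMIs moved with these levels. Adipocyte nuclei had medians of 6.18% to 10.0% mitochondrial UMIs per library, and the other classes 15.4% to 25.2%. Among adipocyte nuclei alone, those with at least 20% mitochondrial UMIs exceeded those with under 5% by 4.12 to 5.50 times for Cfd over the 4 libraries, 3.54 to 4.90 times for Rarres2, 2.37 to 5.43 times for Retn and 2.28 to 3.40 times for Adipoq. Nampt went the other way, at 0.321 to 0.627 times. The part of RNA from outside the nuclei in the levels of the other classes was not tested. The share of nuclei with a UMI of Adipoq, thinned to 1000 UMIs, was 21.0% to 32.9% in adipocytes and 19.2% to 56.25% in B lymphocytes, a cell type not known to make adiponectin (median UMIs per nucleus 2752.5 to 4950 and 1168 to 1383), so a UMI of Adipoq did not mark an adipocyte nucleus.

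Nampt was the abundant adipokine whose sum over adipocyte nuclei stood above that of every other class in each library. It was at 633 to 945 CPM in adipocyte nuclei, 111 to 217 in fibroblasts, 150.2 to 224 in vascular endothelial nuclei, 157 to 280 in myeloid nuclei and 128 to 254 in mural nuclei. Relative to adipocytes it was at 6.90% to 40.6%, under the adipocyte level in all 32 sums and under the median of the markers in 28. With nuclei assigned one by one, its mean log2 ratio to adipocytes was -0.81 in fibroblasts, -0.71 in vascular endothelial nuclei and -0.45 in myeloid nuclei, against -2.31, -2.05 and -1.86 by cluster. Adipocyte nuclei with 10% to 20% mitochondrial UMIs had Nampt at 502 to 864 CPM. With at least 20% they had 455, 530, 217 and 645 in taPVAT 1, taPVAT 2, BAT 1 and BAT 2. That BAT 1 value (interval 156 to 295) was below mural nuclei of BAT 1 (253), and its interval covered the myeloid value there (189). Lep was at 0% to 177% of the adipocyte level and above it in 4 of the 32 sums, all of them in BAT replicate 1, where adipocytes were at 9.65 CPM, Schwann cells at 17.1, myeloid nuclei at 14.9, vascular endothelial nuclei at 10.7 and mural nuclei at 10.5. The intervals of all these classes covered the adipocyte value there. In the replicates 2, where adipocytes were at 57.6 and 90.9, fibroblasts had 11.004 (6.02 to 18.5) and 19.8 (12.3 to 30.3). Apln was at 0 to 7.33 in every class, and its 952 UMIs in all kept nuclei singled out no class.

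Among class sums of taPVAT, chemerin had its highest value in the mesothelial nuclei, the lining cells of the serous membrane, but its order among the classes was only partly resolved. Rarres2 was at 209 CPM there in taPVAT replicate 1 (83 UMIs, 95% Poisson interval 167 to 259) and at 269 in taPVAT replicate 2 (39 UMIs, 192 to 368). In taPVAT replicate 1 this interval overlapped those of myeloid nuclei (198, 167 to 233), fibroblasts (169, 149 to 192) and vascular endothelial nuclei (169, 156 to 184), and lay above that of mural nuclei (139, 120 to 160). In taPVAT replicate 2 it lay above those of fibroblasts (108), mural nuclei (108), myeloid nuclei (115) and vascular endothelial nuclei (91.7). It overlapped those of the smaller classes there, B lymphocytes (194, 8 UMIs), T or NK lymphocytes (152), Schwann cells (146) and lymphatic endothelial nuclei (116). Single clusters of other classes had values above 209 in taPVAT replicate 1, with overlapping intervals, at 224 in a vascular endothelial cluster, 219 in the Slfn4-led myeloid cluster and 214 in the Fbn1-led fibroblast cluster, and the cluster of 1911 nuclei outside the classes, with a median of 24.9% mitochondrial UMIs, was at 285 (258 to 314). Thinned to 1000 UMIs, 20.2% and 24.6% of mesothelial nuclei had a UMI of Rarres2, against 6.21% to 9.91% of adipocyte nuclei over the libraries of both tissues. Adipocytes were the class with the lowest Rarres2 CPM in every library (57.0 to 85.6), so these shares set mesothelial nuclei against the lowest class. In taPVAT adipocyte nuclei with at least 20% mitochondrial UMIs, Rarres2 was at 204 CPM (150 to 271) in replicate 1 and 177 (105 to 279) in replicate 2. These intervals overlapped those of the mesothelial nuclei. Intervals cover counting error only.

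Cmklr1, the signalling receptor for chemerin, was found, among the named classes outside adipocytes, mainly in 3: myeloid nuclei, fibroblasts and vascular endothelial nuclei. In myeloid nuclei it was at 6.87 and 14.5 CPM in taPVAT and at 12.45 and 21.4 in BAT (36 UMIs in all). In fibroblasts it was at 4.82 and 19.7 in taPVAT and at 9.51 and 11.3 in BAT (61 UMIs). In vascular endothelial nuclei it was at 4.44 and 5.52 in taPVAT and at 8.21 and 5.99 in BAT (54 UMIs). Adipocyte nuclei were lower in every library, at 0.412, 0.9497, 0.623 and 1.25 in the same order.

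Relative to adipocytes of the same library, Cmklr1 was 15.3 to 19.99 times as high in myeloid nuclei, 9.06 to 20.7 times in fibroblasts and 4.78 to 13.2 times in vascular endothelial nuclei. The order of myeloid nuclei and fibroblasts was not the same in all libraries, since fibroblasts were higher in taPVAT replicate 2. When nuclei were assigned one by one from their own marker UMIs, the ratio to adipocytes fell to 6.77 to 12.0 in myeloid nuclei, 3.48 to 13.7 in fibroblasts and 1.69 to 4.79 in vascular endothelial nuclei, and was above 1 in each library. Among nuclei with at least 1000 genes, the vascular endothelial ratio was 5.99 to 32.9. The level over all adipocyte nuclei moved with mitochondrial share: under 5% it was 0.215, 0.245, 0.444 and 0.568 CPM in taPVAT 1, taPVAT 2, BAT 1 and BAT 2, and between 10% and 20% it was 1.11, 4.22, 1.64 and 2.06. The levels of the 3 classes, whose medians were 15.4% to 23.9% mitochondrial UMIs, were above the latter in each library, by less than the ratios given. Leaving aside the Kcnip1-led clusters described further on, adipocyte nuclei had 0.140, 0.197, 0.185 and 0.456 CPM under 5% in the same order. Between 10% and 20% they had 0.443, 0.407, 0.277 and 0.545, on 1 to 9 UMIs per library. Kcnip1-led nuclei held 8 of 12, 13 of 14, 14 of 16 and 29 of 38 adipocyte Cmklr1 UMIs in that range. At 20% or more, adipocyte nuclei held 0 to 3 Cmklr1 UMIs per library, too few to compare. Mural nuclei had 8 Cmklr1 UMIs, lymphatic endothelial nuclei 2, Schwann cells 1 and T or NK lymphocytes 1. B lymphocytes and mesothelial nuclei had 0, which at their depth allows up to 72.8 and 20.7 CPM in the shallowest library.

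At 1000 UMIs per nucleus, Cmklr1 was detected in 0.952% to 2.21% of myeloid nuclei, 0.378% to 1.35% of fibroblasts and 0.365% to 0.885% of vascular endothelial nuclei. The same share was 0.0475% to 0.156% in adipocyte nuclei. As found, without thinning, the shares were 0.904% to 2.76%, 0.788% to 3.49%, 0.601% to 1.21% and 0.159% to 0.468%. Thinning left out 133 of 553 myeloid nuclei in the library that lost most of them, and 237 of 27618 adipocyte nuclei there.

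**Figure D3:**
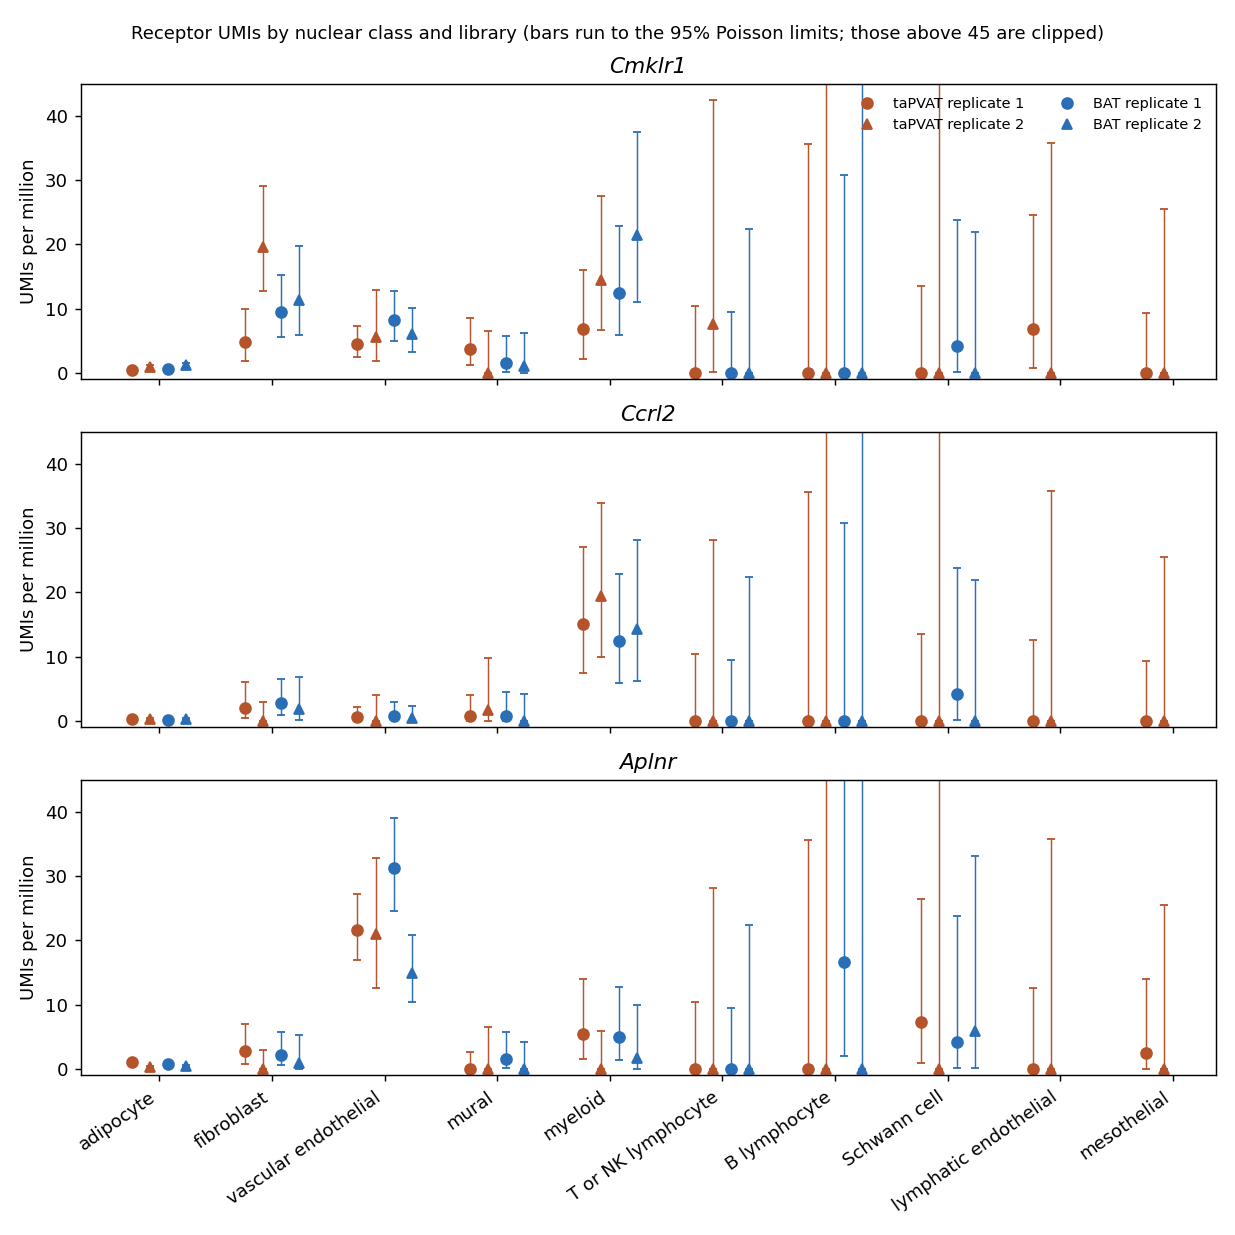
CPM of Cmklr1, Ccrl2 and Aplnr by class, 1 point per library with its 95% Poisson interval (the widest run past the top of the axis). Ccrl2 stands out in myeloid nuclei (12.45 to 19.4), Aplnr in vascular endothelial nuclei (14.97 to 31.2), and Cmklr1 is spread over fibroblasts, vascular endothelial nuclei and myeloid nuclei.

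Within these classes Cmklr1 sat in particular clusters, which had been formed without the 10 members. Among myeloid nuclei, the cluster led by Mrc1 and Cd163, receptors of tissue-resident macrophages, had Cmklr1 at 13.025, 30.5, 24.0 and 54.2 CPM in the libraries taPVAT 1, taPVAT 2, BAT 1 and BAT 2. Summed over the libraries this was 27.7 (28 UMIs, 18.4 to 40.0). The other myeloid cluster, led by Slfn4, had 4.71 (8 UMIs, 2.03 to 9.28). The neutrophil markers summed to 55.4, 47.9, 68.7 and 629 CPM in the Mrc1-led cluster in the same order of libraries, highest in BAT 2 where Cmklr1 was highest, and their part was not tested. The dendritic cell markers summed to 218, 209, 323 and 341 CPM there, against 49.9 to 74.4 in the Slfn4-led cluster. They too were highest in BAT 2, and their part was not tested. The same list summed to 412 and 504 in the Ccdc85a-led endothelial cluster and to 411 and 435 in mesothelial nuclei, so it did not single out myeloid nuclei. The macrophage genes Csf1r and C1qa were at 201 to 388 and 130 to 319 in the Mrc1-led cluster, whereas the Slfn4-led cluster had Csf1r at 425 to 865 and C1qa at 0 to 9.77.

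Among vascular endothelial nuclei, Cmklr1 was highest in a cluster led by Eln (elastin) and Dkk2 that also carried Gja5, the arterial connexin. Its level there was 34.9 in taPVAT 1, 17.5 in taPVAT 2 (2 UMIs in 37 nuclei), 54.0 in BAT 1 and 34.0 in BAT 2, with 40 UMIs in all 4 libraries (38.1, interval 27.2 to 51.9). In a cluster led by Pgm5 and Dnm3 with Vwf, the von Willebrand factor gene, it was 10.3 (6 UMIs, 3.80 to 22.5), and in the largest vascular endothelial cluster, led by Ccdc85a, it was 0.463. Thus 40 of the 54 Cmklr1 UMIs of the class lay in 490 of its 5783 nuclei. The summed myeloid markers in the Eln-led cluster were at 70.8 to 150.1 CPM, against 3539 to 6707 in the Mrc1-led myeloid cluster. The summed fibroblast markers were at 577 to 789 CPM in the Eln-led cluster and at 387 to 629 in the Pgm5-led cluster, against 220.4 and 228.7 in the Ccdc85a-led cluster and 2846 to 11580 in fibroblast clusters. Their part in the Cmklr1 level was not tested.

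Fibroblast clusters all carried Cmklr1. The Smpd3-led cluster, which came from replicates 2 almost alone, had 24.5 in taPVAT 2 and 12.7 in BAT 2 (18.5 in all). The Egfr-led cluster, mostly of replicates 1, had 8.61, and the Fbn1-led cluster had 7.04 (3.51 to 12.6). Differences between the first pair of clusters cannot be told apart from differences between libraries.

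**Figure D4:**
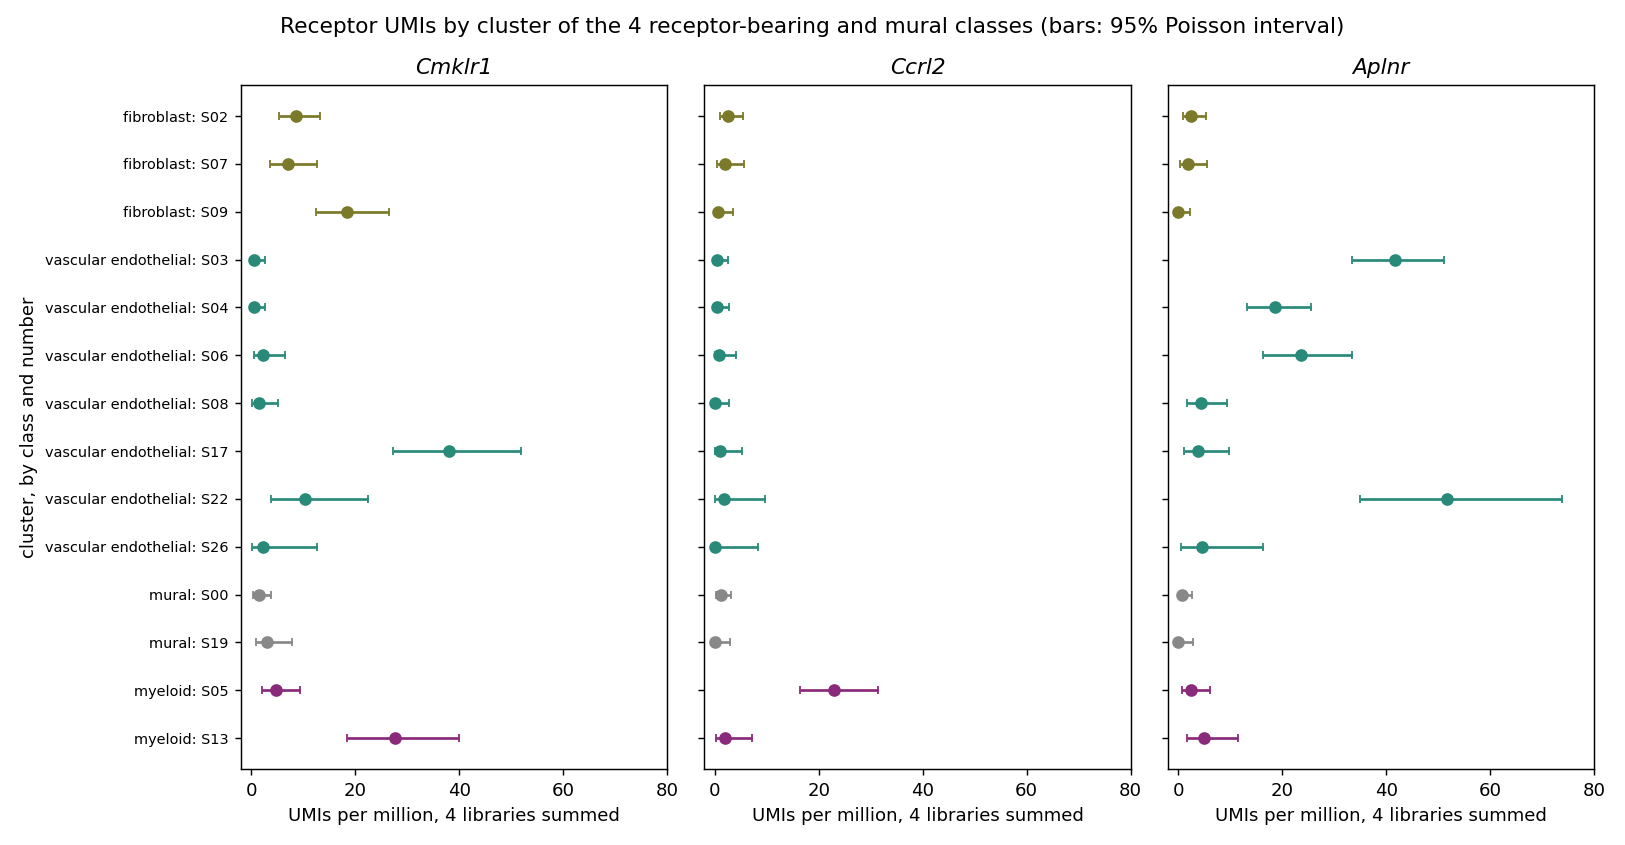
CPM of the 3 receptors in each fibroblast, vascular endothelial, mural and myeloid cluster, labelled by class and cluster number, 4 libraries summed, with 95% Poisson intervals. Cmklr1 peaks in the Eln-led endothelial cluster (S17, 38.1) and the Mrc1-led myeloid cluster (S13, 27.7), Ccrl2 in the Slfn4-led myeloid cluster (S05, 23.0), and Aplnr in the Pgm5-led (S22, 51.7) and Ccdc85a-led (S03, 41.6) endothelial clusters.

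Ccrl2 was found in myeloid nuclei in every library, at 15.1 and 19.4 CPM in taPVAT and at 12.45 and 14.3 in BAT (41 UMIs). This was 54.6 to 62.6 times the level of adipocyte nuclei, which were at 0.214 to 0.310. Adipocyte nuclei with 10% to 20% mitochondrial UMIs were at 0.301 to 0.556. Fibroblasts had 10 UMIs in all (0 to 2.80 CPM), vascular endothelial nuclei 5 and mural nuclei 3. Lymphocytes and mesothelial nuclei had 0. In the shallowest library this allows up to 72.8 CPM in B lymphocytes, 22.8 in T or NK lymphocytes and 20.7 in mesothelial nuclei. The myeloid values of the libraries were within counting error of each other, with all 4 intervals overlapping.

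The myeloid clusters carried the chemerin-binding receptors in opposite order. The Slfn4-led cluster had Ccrl2 at 23.8, 30.8, 19.5 and 18.6 CPM in taPVAT 1, taPVAT 2, BAT 1 and BAT 2 (39 UMIs, 23.0 in all, interval 16.3 to 31.4). The Mrc1-led cluster had 1.98, below the lower bound of that interval. The neutrophil markers of the Slfn4-led cluster summed to 99.8, 559.5, 244 and 359 CPM in the same order of libraries, highest in taPVAT 2 where Ccrl2 was highest, and their part was not tested. For Cmklr1 the Mrc1-led cluster was the higher, as given above. Gated nucleus by nucleus, the myeloid Ccrl2 ratio to adipocytes was 16.3 to 27.3. Thinned to 1000 UMIs, 1.19% to 2.51% of myeloid nuclei had a UMI of Ccrl2, against 0.0256% to 0.0447% of adipocyte nuclei. Among nuclei with at least 1000 genes the mean share in myeloid nuclei was 0.870%, against 1.91% in all of them.

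Aplnr had its highest level in vascular endothelial nuclei among the larger classes of both tissues, although the far more numerous adipocyte nuclei held more of its UMIs (233 of 625). Vascular endothelial nuclei had it at 21.6 and 21.0 CPM in taPVAT and at 31.2 and 14.97 in BAT (203 UMIs), 20.8 to 78.2 times the adipocyte level. Adipocytes had 1.04, 0.268, 0.847 and 0.411 in the same order (0.434 to 1.85 between 10% and 20% mitochondrial UMIs), fibroblasts 0 to 2.75 and mural nuclei 0 to 1.61. Adipocyte nuclei with at least 20% mitochondrial UMIs held 0 to 2 Aplnr UMIs per library, too few to compare. Myeloid nuclei had 0 to 5.49 CPM (9 UMIs) and Schwann cells 0 to 7.33 (4 UMIs). B lymphocytes had 16.7 in BAT 1 (2 UMIs) and 0 in the other libraries. Lymphatic endothelial nuclei of taPVAT had 0 UMIs, which allows up to 29.1 CPM in the shallower library. Gated nucleus by nucleus, the ratio was 9.02 to 55.9.

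Endothelial clusters differed in Aplnr and in Cmklr1 in different ways. Aplnr was at 51.7 (34.9 to 73.9) in the Pgm5-led cluster and at 41.6 (33.5 to 51.2) in the Ccdc85a-led cluster. It was at 3.81 (1.04 to 9.75) in the Eln-led cluster, where Cmklr1 was highest. The Ccdc85a-led cluster was almost wholly of replicates 1. At 1000 UMIs, Aplnr was detected in 1.79% to 2.88% of vascular endothelial nuclei and in 0.0335% to 0.117% of adipocyte nuclei.

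Receptor levels were tested between tissues where the low-count filter kept them. Among vascular endothelial nuclei 0 of the 8 members tested were called, beside 0.0% of 10269 genes (0 genes, 129 at an unadjusted p under 0.05; DESeq2 called 6). There Cmklr1 had a log2 fold change of -0.62 ± 0.50 (SE, n = 2 libraries a tissue) and Aplnr one of -0.16 ± 0.40. In fibroblasts 0 of 7 members were called, beside 0.212% of 9422 genes, with Cmklr1 at 0.17 ± 0.66. In myeloid nuclei 0 of 7 were called, beside 0.0% of 7721 genes (0 genes, 77 at an unadjusted p under 0.05; DESeq2 also called 0), with Ccrl2 at 0.36 ± 0.53, and Cmklr1 did not pass the filter there. In mural nuclei (0 of 6 members, 0.0116% of 8623 genes), Schwann cells (0 of 5, 0.0272% of 3676), T or NK lymphocytes (0 of 5, 0.0% of 4587) and B lymphocytes (0 of 5, 0.0% of 1508) no member was called either. An unadjusted p under 0.05 was found for 54 genes in T or NK lymphocytes and for 21 in B lymphocytes, with 0 calls by DESeq2 in each.

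Kcnip1, which encodes a potassium channel-interacting protein, led 2 adipocyte clusters that were rich in several members at once. They held 6883 of 75112 adipocyte nuclei (9.16%), and 7.02% to 11.9% of those of each library. Their other leading genes included Clmp, Kcnn3 and Nnat. The larger cluster came from all 4 libraries and the smaller one almost wholly from replicates 1. Clusters were formed without the members, but from the same nuclei, so the comparison with the other adipocyte nuclei is a description with no test.

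Cmklr1 was at 2.51 and 15.6 CPM in these nuclei in taPVAT and at 4.17 and 14.1 in BAT. In the other adipocyte nuclei it was at 0.233 and 0.344 in taPVAT and at 0.237 and 0.514 in BAT. The ratio was thus 10.8 to 45.3, and 134 of the 221 adipocyte UMIs of Cmklr1 (60.6%) lay in these 9.16% of adipocyte nuclei. At 1000 UMIs per nucleus, 0.2135% to 1.75% of them had a UMI of Cmklr1, against 0.0105% to 0.0388% of the others. Ccrl2 did not share this: 3 of its 80 adipocyte UMIs lay there.

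Lep was at 92.9 and 357 CPM in the Kcnip1-led nuclei in taPVAT and at 46.0 and 272 in BAT. The other adipocyte nuclei had 3.74, 45.2, 5.70 and 80.5, so that the ratio was 3.37 to 24.8. Replicates 2 remained above replicates 1 in both kinds of nuclei. Retn was 2.51 to 3.64 times as high, Adipoq 2.04 to 3.40 times, Cfd 1.41 to 2.84 times and Rarres2 1.16 to 1.84 times. Nampt was lower in every library, at 0.345 to 0.610 times the level of the other adipocyte nuclei.

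**Figure D5:**
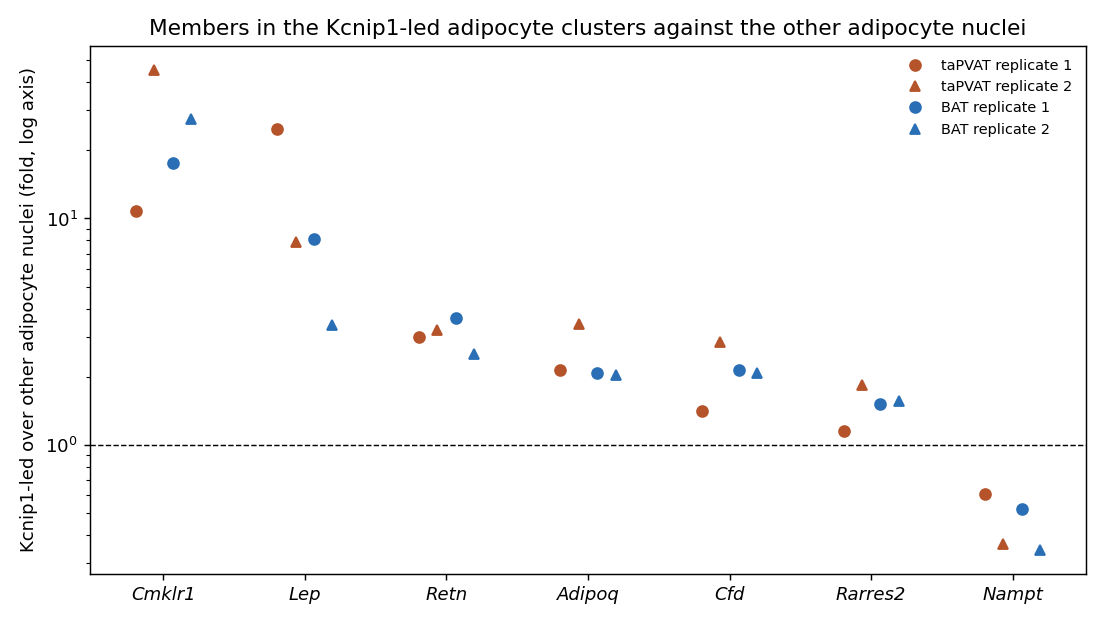
Level of 7 members in Kcnip1-led adipocyte nuclei divided by that in the other adipocyte nuclei (log axis, 1 point per library, dashed line at 1). Cmklr1 and Lep lie farthest above the line (10.8 to 45.3 and 3.37 to 24.8), and Nampt lies below it in all 4 libraries.

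Ratios among nuclei of like mitochondrial share varied between members. Between 5% and 10% mitochondrial UMIs, the ratios were 9.74 to 34.3 for Cmklr1, 3.46 to 27.5 for Lep, 2.13 to 3.39 for Retn, 1.93 to 3.08 for Adipoq, 1.30 to 2.11 for Cfd, 1.07 to 1.58 for Rarres2 and 0.410 to 0.536 for Nampt. Under 5%, where only the replicates 1 gave values, Rarres2 was at 0.986 and 1.18 and Adipoq at 1.79 and 1.66. At 20% or more, with 22 to 85 Kcnip1-led nuclei per library, Adipoq was at 1.11 to 1.82 and Retn at 1.21 to 2.40, and Cmklr1 gave no ratio. The Kcnip1-led nuclei, with both clusters pooled, were shallower, with medians of 2148.5 to 2894.5 UMIs per nucleus against 2808 to 5106. The summed myeloid markers were at 53.5 to 87.2 CPM in the Kcnip1-led nuclei and at 49.5 to 69.3 in the others, and the summed fibroblast markers were at 82.7 to 131 and 50.8 to 83.7, higher in the Kcnip1-led nuclei of each library. The summed neutrophil markers were at 64.7 to 97.6 CPM and 40.0 to 57.4, and the summed dendritic cell markers at 10.9 to 13.9 and 5.35 to 8.82, both higher in the Kcnip1-led nuclei of each library. Most of the neutrophil sum was Mpo, at 55.3 to 83.6 CPM and 31.7 to 53.5, while the neutrophil receptor gene Csf3r was at 0.239 to 0.519 and 0.193 to 0.430. Of 8 markers each, 1 to 3 neutrophil and 3 to 6 dendritic cell markers were at 0 in the Kcnip1-led nuclei of a library. The summed vascular endothelial markers were at 32.7 to 78.0 CPM and 30.3 to 66.9, higher in the Kcnip1-led nuclei of each library, and the summed mural markers at 168 to 404 and 422 to 524, lower in each. In fibroblast clusters the same fibroblast markers summed to 2846 to 11580 and in myeloid clusters the same myeloid markers to 2010 to 6707. All 10 fibroblast markers and at least 12 of 13 myeloid markers had UMIs in the Kcnip1-led nuclei of each library. The part of these 6 marker lists in the result was not tested. The summed adipocyte markers were at 21994 to 25420 and 19067 to 22081. Ucp1, the uncoupling protein of brown fat, was at 199.8 to 698 CPM in the Kcnip1-led nuclei and at 469.7 to 1623 in the others, lower in each library.

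Partners of the members were distributed as follows. Gpr1, a further chemerin receptor, had 0 UMIs in every library, which allows up to 0.053 CPM in the shallowest. Adipor2, an adiponectin receptor, was at 137 to 194 CPM in adipocytes and at 49.7 to 77.0 in vascular endothelial nuclei, while Adipor1 was at 44.7 to 51.5 and 56.0 to 69.0. Cdh13 (T-cadherin, which binds adiponectin) was at 3227 to 4094 in vascular endothelial nuclei and at 9.56 to 20.4 in adipocytes. Lepr, the leptin receptor, was at 2.46 to 5.92 in vascular endothelial nuclei and at 0.0389 to 0.0934 in adipocytes. C3, the complement protein downstream of factor D, was at 33.0 to 95.3 in myeloid nuclei and at 1.02 to 1.08 in adipocytes.

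The genes whose levels followed the receptors most closely were ranked by Pearson's r on log2 levels over 36 sums of a class in a library, among 14396 genes. The points share libraries and depth, and the values are a description. Ccrl2 was most like C3ar1, the C3a receptor gene (r = 0.938), then Lilra5 (0.897) and Siglec1 (0.894). Aplnr was most like Samd5 (0.872), Pls1 (0.8155) and Rsad2 (0.769). Cmklr1 was most like Vcan, which encodes the proteoglycan versican (0.786), then AABR07039446.2 (0.771) and Fam20c (0.750).

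Genes of the pathways around the members were read from 7 lists, and none was called between the tissues in any class. In adipocytes these were 0 of 9 tested receptors and binding partners, 0 of 8 chemerin-processing enzymes, 0 of 4 apelin-system genes, 0 of 9 complement genes, 0 of 5 genes of adiponectin assembly, 0 of 23 other secreted factors and 0 of 8 regulators, with list medians from -0.08 to 0.23 beside 0.01 over all genes. Fgf1, a growth factor of fat remodelling, was at 96.2 and 138 CPM in taPVAT and 65.6 and 73.5 in BAT, with a log2 fold change of 0.79 ± 0.31. The values of the tissues did not overlap, as was so for 19.9% of 15516 genes, and the difference did not pass the adjustment (edgeR adjusted p = 0.999994). Several genes of the next paragraph did not overlap either, among them Ror1, F2, Mme, Igf1, Gstk1 and Hsp90b1.

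The remaining list genes with the smallest p-values were as follows. Among binding partners, the log2 fold changes were 0.83 ± 0.51 for Ror1, 0.35 ± 0.41 for Cdh13 and -0.38 ± 0.51 for Tlr4. Among chemerin-processing enzymes, F2 (prothrombin) had 1.17 ± 0.70, Plat (tissue plasminogen activator) 0.68 ± 0.49 and Ctsk (cathepsin K) 0.39 ± 0.37. In the apelin system, Mme (neprilysin) had 0.33 ± 0.26, Agtr1a 0.28 ± 0.40 and Furin -0.03 ± 0.27. The complement genes were Cfb with 1.31 ± 0.77 and C5ar2 with -0.77 ± 0.54. Ero1a (0.34 ± 0.29), Gstk1 (-0.32 ± 0.35) and Hsp90b1 (-0.14 ± 0.26) stood for adiponectin assembly. Igf1 (0.72 ± 0.37) and Fndc5 (-0.79 ± 0.42) were secreted factors, and Rxra (0.47 ± 0.36), Srebf1 (-0.34 ± 0.46) and Nr1h3 (0.18 ± 0.41) were regulators.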

How the data were processed

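Single-nucleus RNA was sequenced from 2 taPVAT and 2 BAT libraries. The authors deposited raw UMI counts per gene and barcode, made with Cell Ranger 7.1.0 per the file headers and on build Rnor_6.0 per the submitters' processing notes. For the annotation release and the intron setting, the labels and file headers give nothing. Barcodes with under 500 genes were dropped. Doublets were called with Scrublet (scanpy 1.11.5, 0.8% expected per 1000 barcodes), which removed 10.8%, 6.61% and 15.3% in taPVAT 1, taPVAT 2 and BAT 2. It called 0 in BAT 1, where the 18.5% with the highest scores were removed instead, scaled from the share of expected doublets that was called elsewhere. Nuclei were clustered (3000 variable genes without the 10 members, 30 principal components, Leiden in 2 rounds), and clusters were named from marker lists, with naming thresholds set after the data were seen. Lists of proliferating, erythroid or platelet, mast, neuron, skeletal muscle, neutrophil and dendritic cells named no cluster, with 0 to 4 markers at 20 CPM. The members and lists were chosen with earlier results of these data known.

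Counts were summed per library and class and tested with edgeR 4.0.16 (quasi-likelihood, TMM, filterByExpr with a minimum count of 10, Benjamini-Hochberg, threshold 0.05), where each library held at least 20 nuclei. The steps were tested on simulated data. Alternatives were DESeq2 1.42.0, no low-count filter, a replicate block, each library left out, at least 1000 genes, at most 5% mitochondrial UMIs, no doublet removal, nuclei gated by their own markers and no thinning. Those of the Kcnip1-led comparison were chosen after seeing the data. Poisson and Wilson intervals are at 95%, and a count of 0 is given the limit of 3 counts. Named genes were all members, 6 partners, the 3 genes of each list with the smallest p in adipocytes where none was called, and the 3 genes most like each receptor. Some results that fall under these rules are not reported here.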

Additional observations from a re-analysis of the deposited data

How the results depend on the processing

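The direction of most member differences between tissues depended on which libraries were used, and 20 of 147 alternatives for single members turned the sign, of which 1 was called (Lep without BAT replicate 2). Leaving out a library in turn, the log2 fold changes in adipocytes ran from -2.27 to 1.93 for Lep (0.19 without taPVAT replicate 1), -0.32 to 0.40 for Nampt (-0.21 without taPVAT replicate 2), -0.56 to 0.065 for Apln, -0.34 to 0.20 for Rarres2 (0.03 without BAT replicate 1), -1.19 to 0.19 for Cmklr1 (0.05 without taPVAT replicate 1) and -1.19 to 0.71 for Aplnr (-0.28 without BAT replicate 2). They ran from -1.17 to 0.89 for Cmklr1 in fibroblasts (-0.06 without BAT replicate 1) and from -0.55 to 0.38 for Aplnr in vascular endothelial nuclei. With at most 5% mitochondrial UMIs Nampt was -0.024 and Rarres2 0.11, and with gated nuclei Rarres2 was 0.0098 and Cmklr1 in fibroblasts -0.42. Same-numbered libraries deviated together in adipocytes (correlation 0.767), but 2 pairs cannot establish pairing. With the replicate block, Aplnr in adipocytes was -0.015 and Cmklr1 in fibroblasts -0.032, no member was called, and 386 genes were called over all nuclei, 414 in adipocytes, 310 in fibroblasts, 5 in mural nuclei, 31 in vascular endothelial nuclei, 7 in Schwann cells and 3 in T or NK lymphocytes. DESeq2 called 108, 62, 54, 13, 6 and 0 genes in the first 6 of these. Without the low-count filter 60, 12, 188, 88, 34, 4 and 5 genes were called in the same order, with 7 in myeloid nuclei and 1 in B lymphocytes. Without 1 library 0 to 97 genes were called over all nuclei, 0 to 114 in adipocytes (0 to 1 members), 27 to 111 in fibroblasts, 1 to 301 in mural, 0 to 54 in vascular endothelial, 0 to 9 in Schwann, 0 to 17 in T or NK, 2 to 84 in myeloid and 0 to 11 in B lymphocyte nuclei. With at least 1000 genes 0 were called in mural nuclei and 2 in Schwann cells, without doublet removal 0 in Schwann cells, and with gated nuclei 4 in fibroblasts, 0 in mural nuclei and 0 in Schwann cells. Mean log2 ratios to adipocytes with gated nuclei were 3.17, 2.89 and 1.77 for Cmklr1 in myeloid, fibroblast and vascular endothelial nuclei (4.10, 3.76 and 2.99 by cluster), 4.45 for myeloid Ccrl2 (5.85) and 4.32 for vascular endothelial Aplnr (5.26). They were 0.50, 0.18 and 0.18 for Rarres2 and -0.81, -0.71 and -0.45 for Nampt in fibroblast, vascular endothelial and myeloid nuclei. With at least 1000 genes Cmklr1 was 4.48 in myeloid and 3.89 in vascular endothelial nuclei, and Rarres2 0.81 in fibroblasts and 0.61 in myeloid nuclei. Mean shares without thinning were 1.91% and 0.9502% for Cmklr1 in fibroblasts and vascular endothelial nuclei (0.832% and 0.535% thinned) and 3.41% for vascular endothelial Aplnr (2.13%). With at least 1000 genes they were 0.926% for vascular endothelial Cmklr1 and 0.870% for myeloid Ccrl2, and with gated nuclei 1.33% for the latter. The cause of these shifts was not tested. The ratios of Kcnip1-led to other adipocyte nuclei moved by less than their spread under the alternatives that gave a value. The 5% mitochondrial limit gave no value for any class ratio, share or Kcnip1-led ratio, nor did 1000 genes for the Ccrl2 ratio, since a library had too few nuclei or 0 UMIs. The receptors rest on few UMIs (36 to 203 in a class), which limits differences between libraries to those given by their intervals.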
